A study of Drosophila melanogaster with 4 samples.

Results

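*hth*, *exd*, *ara*, *caup*, *mirr* and *Skeletor* are 6 of the 13964 genes counted in these single-cell libraries. They were taken by symbol, for their known or proposed place in the dorsal part of the *Drosophila* eye. The libraries came from dissected eyes of wild-type *Canton-S* adults, 1 each from males at 1, 3 and 7 days and from females at 1 day. With a single library for each of these groups, ages and sexes were not compared by a test. All libraries were made with Actinomycin D in the dissociation, each from pooled eyes. Dissociated cells keep no record of where in the eye they sat, so a dorsal origin is known here only through genes.

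The fly eye is built of repeated units, the ommatidia, each with outer photoreceptors R1-6 and inner photoreceptors R7 and R8 surrounded by pigment and cone cells. R7 usually makes either Rh3 (pale) or Rh4 (yellow) as its light sensor, and R8 makes Rh5 or Rh6. At the dorsal edge lies the dorsal rim area (DRA), where R7 and R8 both make Rh3 and detect polarized light. *hth* encodes Homothorax, a homeodomain protein that is needed for the rim fate, and *exd* encodes Extradenticle, its partner on DNA. *ara*, *caup* and *mirr* form the Iroquois complex of homeodomain genes, which mark the dorsal side of the developing eye. In the dorsal region of the adult eye, yellow R7 cells make Rh3 together with Rh4, and Iroquois proteins are known to turn on Rh3 there. *Skeletor* encodes a nuclear protein described at the mitotic spindle matrix. The study named *Skeletor* from these same cells as a potential DRA marker, so its level in the rim-type cells is not independent evidence.

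In the dm6 genome *hth* (FBgn0001235) covers 3R:10507561-10639568 on the minus strand and *Skeletor* (FBgn0262717) covers 3R:10686943-10696270 on the plus strand. The starts of the 2 genes are 47.4 kb apart. *ara* (FBgn0015904, 3L:12580672-12596018), *caup* (FBgn0015919, 3L:12609631-12621798) and *mirr* (FBgn0014343, 3L:12693639-12710249) lie in a row on the plus strand. A gap of 13.6 kb separates *ara* from *caup*, and 71.8 kb separates *caup* from *mirr*. *exd* (FBgn0000611) is on the X chromosome at 15992468-15996509.

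The 4 libraries held 6335 to 16275 barcodes and 17654226 to 98373676 unique molecular identifiers (UMIs, each marking a captured RNA molecule), and 5897 to 13788 cells passed the limits on genes and mitochondrial share. Pairs of libraries shared 12 to 37 barcodes, at most 0.425% of the smaller library. Levels are given as CPM, the UMI counts of a gene scaled to the summed UMIs of all genes in the same class and library. Intervals are exact Poisson intervals for UMIs and exact Clopper-Pearson intervals for shares of cells, both at 95%, and cover counting error only. CPM values are compared between cells for the same gene, never between genes.

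Photoreceptor-like cells were divided by their rhodopsin UMIs. Rh3 cells had at least 70% of their Rh3 and Rh4 UMIs from *Rh3*, Rh4 cells had as much from *Rh4*, and Rh3/Rh4 cells had neither at 70%, with at least 5 UMIs of each. There were 1351 Rh3 cells, 156 Rh3/Rh4 cells, 910 Rh4 cells, 190 Rh5 cells, 1162 Rh6 cells, 14558 R1-6 cells and 8033 secondary and tertiary pigment-like cells over the 4 libraries. Rh3 cells were further divided into 150 with 2 or more *hth* UMIs, 1170 with none and 31 with 1, which entered neither group. *hth* is therefore part of the definition in every comparison of these Rh3 groups and is only described there. The 6 genes were removed from the counts before cells were clustered, so no cluster rests on them.

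*hth* marked a small and distinct group of Rh3 cells. This group made up 14.3% (11.002 to 18.03%) of the Rh3 cells in the 1-day males, 10.2% (6.90 to 14.4%) in the 3-day males, 8.16% (5.44 to 11.6%) in the 7-day males and 10.9% (7.80 to 14.7%) in the females. The intervals of all 4 libraries overlap. The median cell of this group held 13 *hth* UMIs in the 1-day males, 11 in the 3-day males, 10 in the 7-day males and 15 in the females, and 45 of 58, 25 of 28, 22 of 27 and 29 of 37 cells held 5 or more. Cells at the limit were few, with 2 to 4 cells a library at exactly 2 UMIs and 5 to 12 at 1 UMI. The *hth* level of the group was 1601 CPM in the 1-day males, 1692 in the 3-day males, 2208 in the 7-day males and 1098 in the females.

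In the other gated photoreceptor classes *hth* was at 0 or at a few CPM. Photoreceptor-like cells outside every gate are not covered by this and held 5.63 to 42.5 CPM. No *hth* UMI was counted in the 156 Rh3/Rh4 cells or the 190 Rh5 cells, where 3 UMIs would have given 2.75 and 3.26 CPM. Rh4 cells lay between 0 and 3.16 CPM, Rh6 cells between 0 and 3.69 CPM and R1-6 cells between 0.796 and 2.66 CPM. At least 2 *hth* UMIs were found in 0 of 910 Rh4 cells, which allows a share of up to 0.330%, in 2 of 1162 Rh6 cells and in 23 of 14558 R1-6 cells. The median depth of the cells was 3967 to 14708 UMIs in Rh3 cells with *hth* and 1915 to 8476 UMIs in R1-6 cells, so the rim-type cells were the deeper ones. Pigment-like cells held *hth* at a level of their own, described further down.

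**Figure D1:**
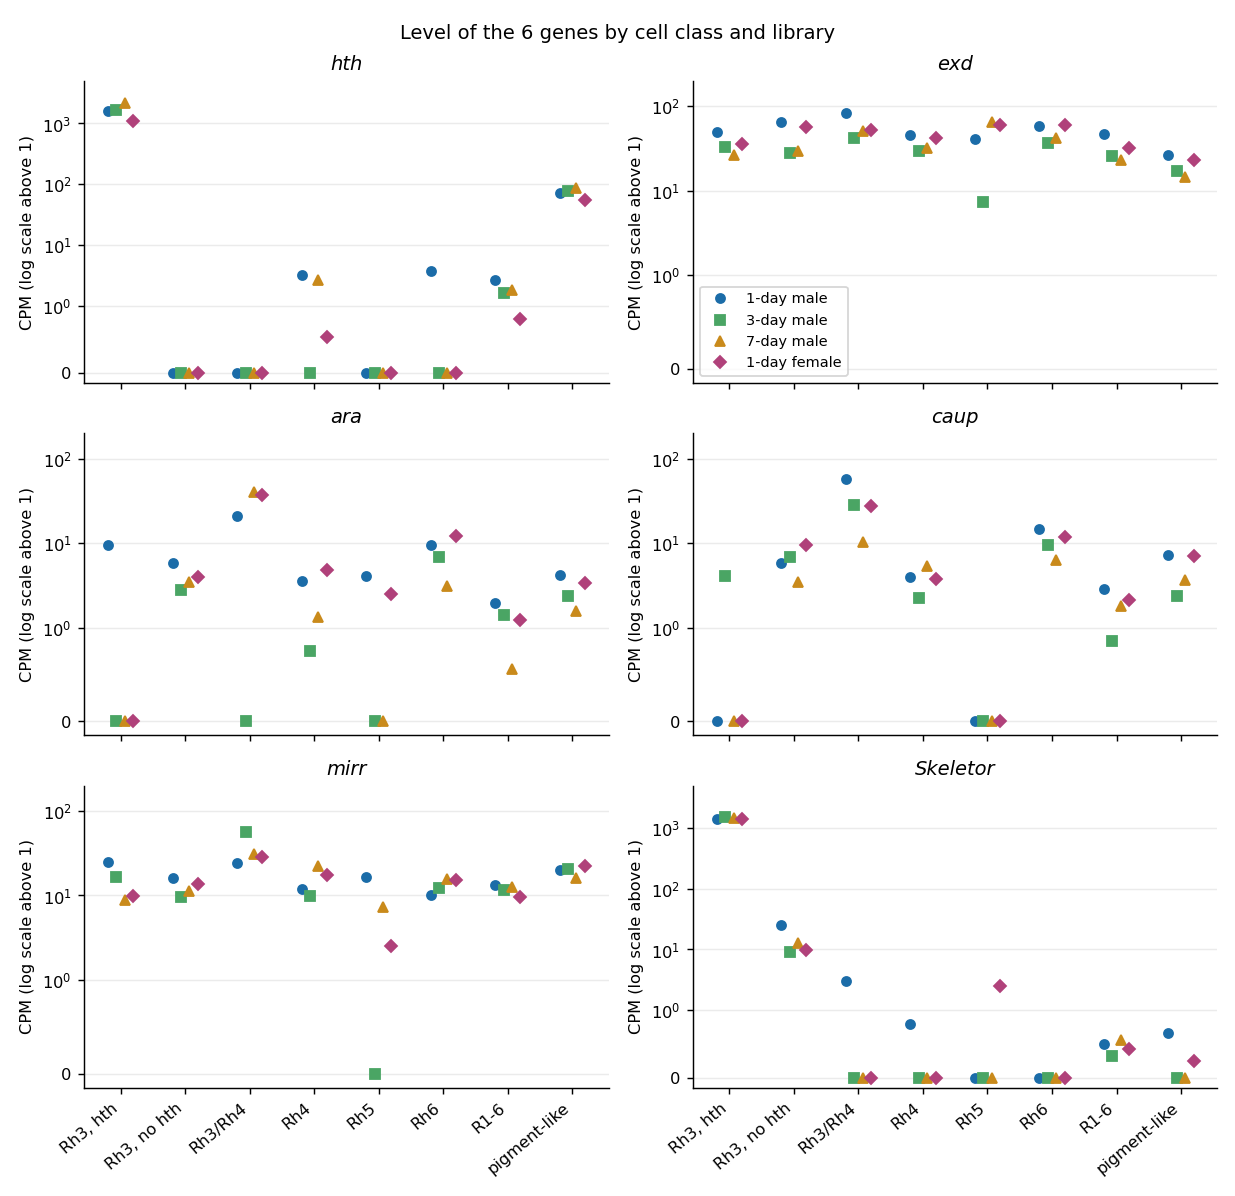
Level of each gene (CPM, log axis above 1 and linear below) in 8 cell classes; each point is 1 library, with the 3 male ages and the females in separate colours and shapes. *hth* and *Skeletor* stand above 1000 CPM in Rh3 cells with *hth* in every library, *caup* is highest in Rh3/Rh4 cells in every library and *ara* in 3 of 4, and *exd* and *mirr* are spread over all classes.

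*Skeletor* rose with *hth* in the same cells. In Rh3 cells with *hth* its level was 1411 CPM in the 1-day males, 1496 in the 3-day males, 1448 in the 7-day males and 1410 in the females. Rh3 cells without *hth* had 25.1, 8.94, 12.5 and 9.68 CPM in the same order. The groups did not overlap, and the 4 values with *hth* had an SD of 40.7 CPM around their mean. The log2 fold change was 6.58 (SE 0.12), higher in 4 of 4 libraries, with an adjusted p of 1e-300 in edgeR's quasi-likelihood test, the smallest value written. Without each library in turn it ranged from 6.32 to 7.10.

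Single cells show the same pairing. *Skeletor* reached 2 UMIs in 49 of 58 Rh3 cells with *hth* in the 1-day males, 23 of 28 in the 3-day males, 21 of 27 in the 7-day males and 35 of 37 in the females. In Rh3 cells without *hth* it did so in 10 of 342, 4 of 241, 3 of 297 and 6 of 290 cells. These 23 cells without *hth* held 93 of the 122 *Skeletor* UMIs of their class, so most of its *Skeletor* came from 1.97% of its cells. A further 18 of the 150 cells with *hth* had no *Skeletor* UMI. Among the 31 Rh3 cells with a single *hth* UMI, whose median depth was 850 to 1497 UMIs, 17 held 2 or more *Skeletor* UMIs.

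**Figure D2:**
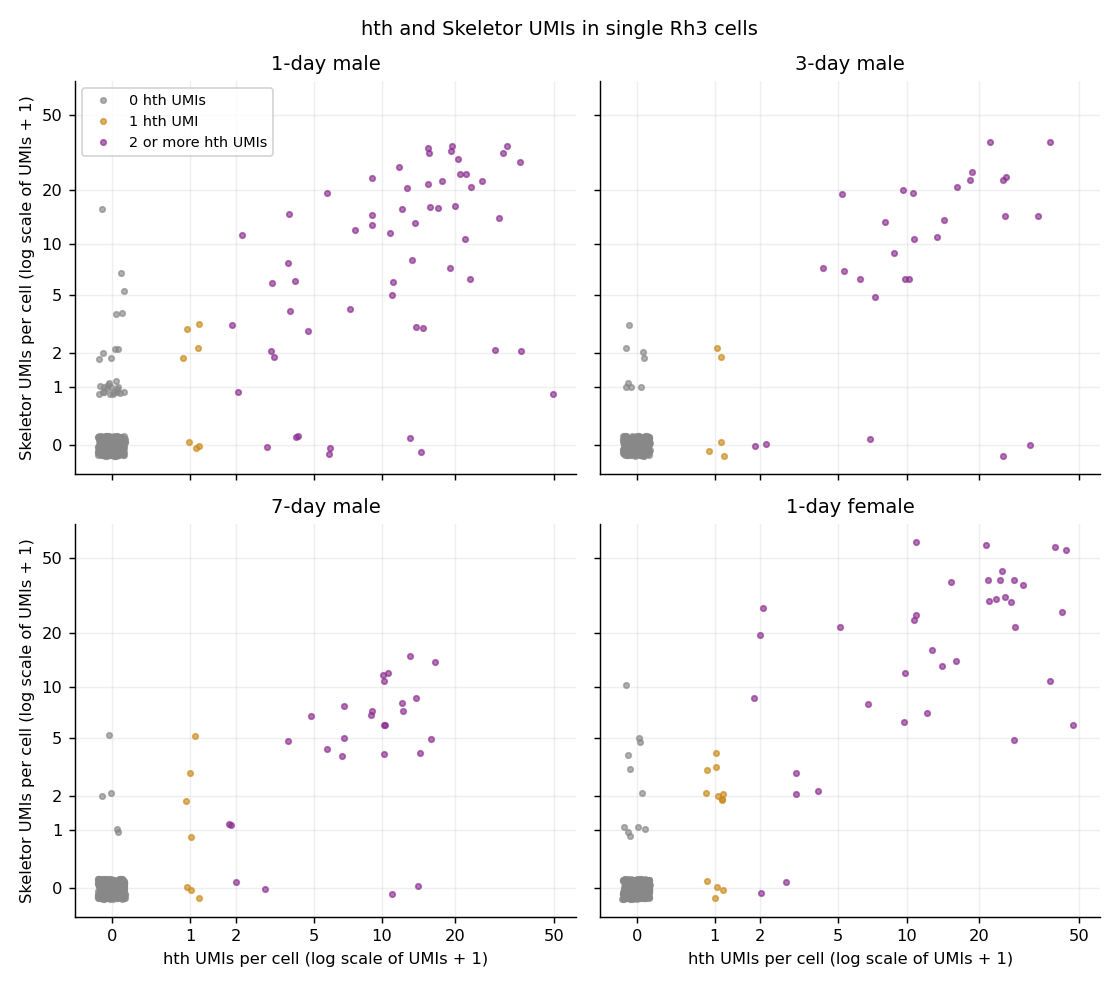
*hth* (x axis) and *Skeletor* (y axis) UMIs of each Rh3 cell, 1 panel a library, on log axes of UMIs + 1 with a small random offset so that equal counts can be seen apart. Most cells with 2 or more *hth* UMIs also hold *Skeletor*, and most cells without *hth* sit at 0 for both.

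Apart from Rh3 cells with 1 or more *hth* UMIs, no eye class held *Skeletor* at such a level. The 31 Rh3 cells with 1 *hth* UMI held 346 to 1669 CPM of it over the libraries. *Skeletor* gave 1 UMI in Rh3/Rh4 cells, 2 in Rh4 cells, 1 in Rh5 cells and 0 in Rh6 cells. In R1-6 cells it lay between 0.316 and 0.557 CPM and in pigment-like cells between 0 and 0.663 CPM. Glia held 78 UMIs (7.99 CPM), with 4 of 1505 cells at 2 or more. Rh3 cells without *hth* exceeded Rh4 cells, with 14.5 against 0.308 CPM over the 4 libraries, a ratio of 47.3 (12.8 to 395). The fitted log2 fold change was 5.40 (SE 0.50; adjusted p = 2.11e-12; higher in 4 of 4 libraries). Of the 122 UMIs in Rh3 cells without *hth*, 93 came from 23 of 1170 cells. The difference therefore rests mostly on few cells, and the interval takes each UMI as independent. Against Rh3/Rh4 cells with their 1 UMI, the ratio was 1556 (279 to 61484) for Rh3 cells with *hth* and 15.9 (2.79 to 631) for those without. The second of these differences was called (adjusted p = 7.69e-04), and the call held in 9 of 13 alternatives. It was lost with DESeq2 (adjusted p = 0.270), without the library block (0.117), without the 1-day males (0.0746) and without the females (0.0823).

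**Figure D3:**
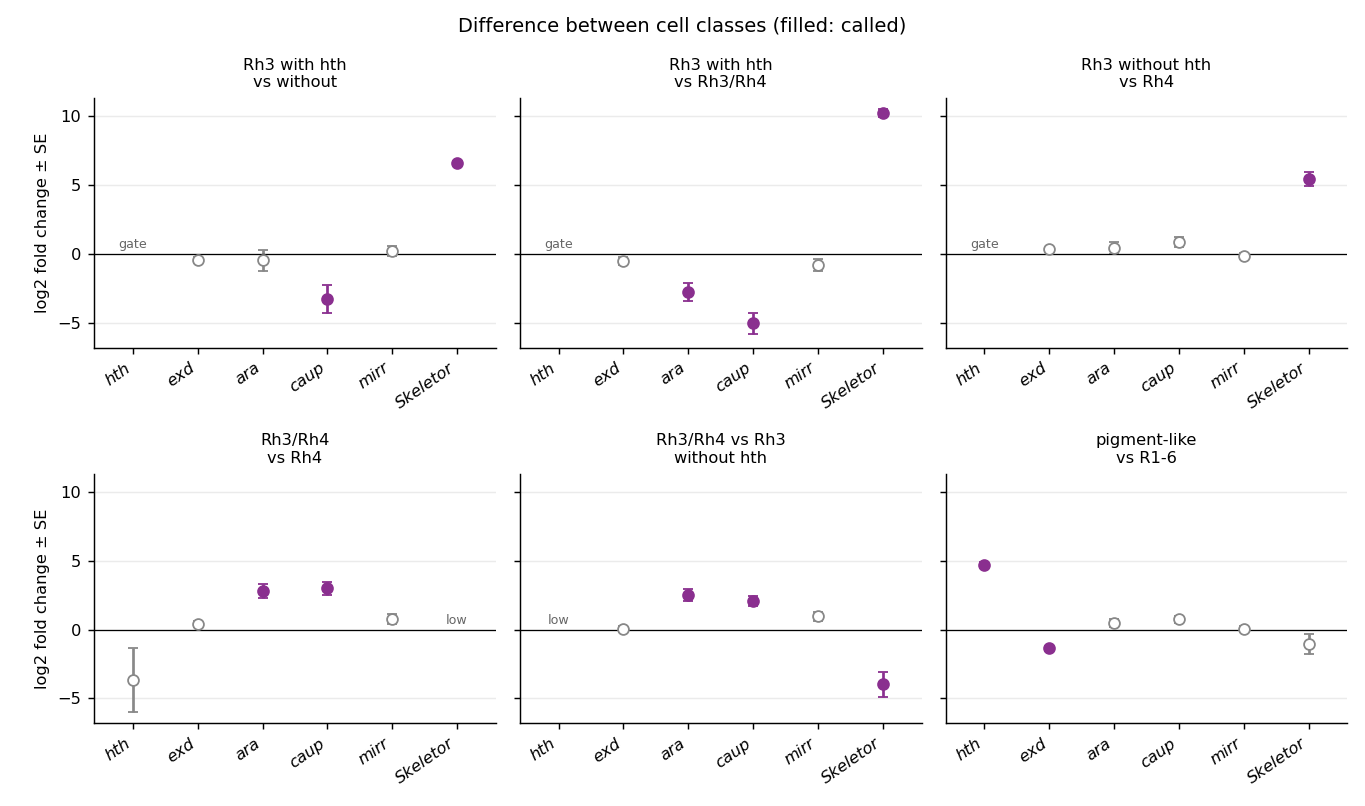
Log2 fold change of each gene with its SE from edgeR in 6 comparisons of cell classes over 4 libraries, filled where called (adjusted p under 0.05 and over 2-fold). *Skeletor* and *hth* show the tallest rises, "gate" marks *hth* where it defines the groups, and "low" marks a gene with fewer than 10 UMIs.

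Of the 5 genes tested between Rh3 cells with and without *hth*, *Skeletor* was called higher and *caup* lower, against a background of 3.12% of all 6580 genes called. *caup* gave 1 UMI in cells with *hth* against 61 in cells without, a ratio of 10.9 (1.88 to 437) in favour of the latter. Its levels with *hth* were 0, 4.09, 0 and 0 CPM in the 1-day, 3-day and 7-day males and the females, against 5.89, 6.87, 3.42 and 9.40 CPM without. The call (adjusted p = 0.0176) did not hold without the 1-day males (adjusted p = 0.198) or without the females (0.528), and DESeq2 gave 0.489. It was kept in 10 of 15 alternatives, whose adjusted p ranged from 0.00898 to 0.528. *ara* had 5 UMIs in cells with *hth*, all in the 1-day males, and its difference of -0.46 (SE 0.75, log2) did not pass the test. *mirr* differed by 0.19 (SE 0.35) and *exd*, the partner of *hth*, by -0.43 (SE 0.21), neither past the test. *exd* stood at 49.5, 32.7, 26.8 and 35.8 CPM in cells with *hth* and at 64.8, 28.2, 29.7 and 56.4 CPM in cells without, so the 2 ranges overlapped.

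*CG14688*, a gene between *hth* and *Skeletor*, was among the 5 genes with the largest rise, and the other neighbours were chosen after the data had been seen. Both protein-coding genes between *hth* and *Skeletor* that the files list were higher in Rh3 cells with *hth*. *CG14688*, whose start lies 41.4 kb from that of *hth*, had 40.0, 40.9, 107 and 143 CPM in these cells (1-day, 3-day and 7-day males, females). In Rh3 cells without *hth* it had 0, 0.687, 1.14 and 1.14 CPM. Its log2 fold change was 6.76 (SE 0.35; adjusted p = 1.51e-77). *CG6465* rested on 8 against 2 UMIs, a ratio of 22.4 (4.48 to 217; adjusted p = 0.00549). *CG6465* was not particular to cells with *hth*. It stood at 2.64 to 19.0 CPM in pigment-like cells and 1.90 to 12.3 CPM in Rh3 cells with *hth*. *CG14688* stood at 0 to 0.264 CPM in pigment-like cells. On the far side of *Skeletor*, *pug* had 0 UMIs in cells with *hth* and 1 in cells without. *CG31278* did not pass the test (log2 difference -0.01, SE 0.74). Non-coding RNAs annotated between *hth* and *Skeletor* were not analysed here.

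**Figure D4:**
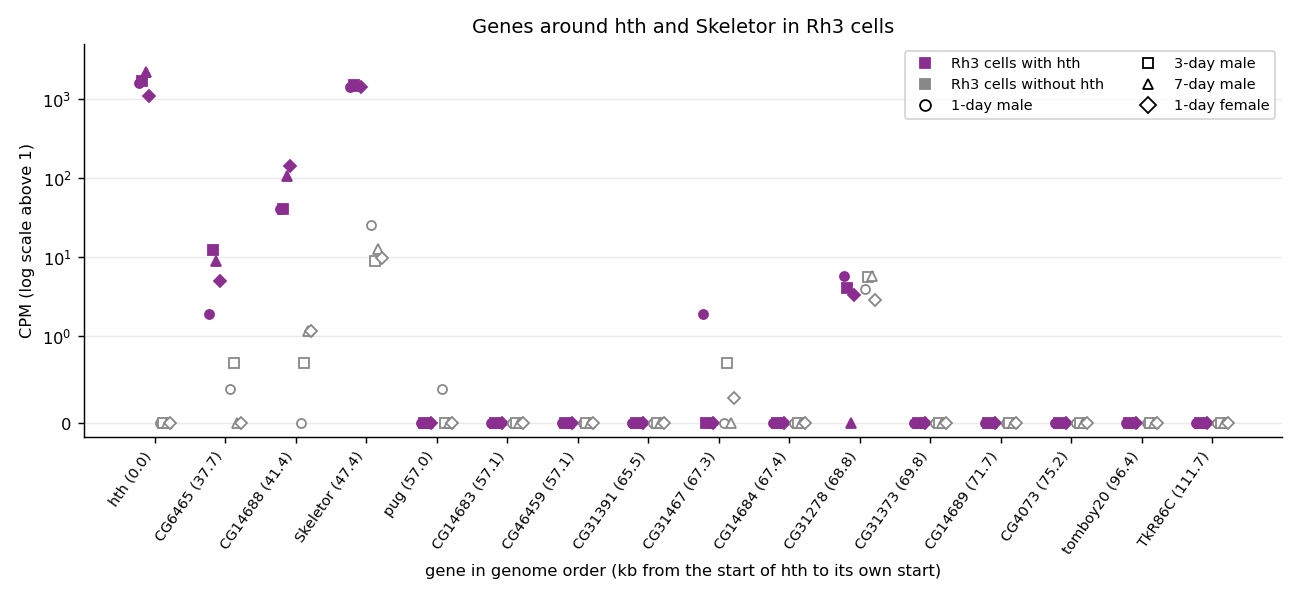
CPM (log axis above 1) of the listed protein-coding genes from *hth* to 50 kb past *Skeletor*, in genome order with the distance from the start of *hth* in kb; filled points are Rh3 cells with *hth*, open points Rh3 cells without, 1 point a library. *hth*, *CG6465*, *CG14688* and *Skeletor* are higher in cells with *hth*, and genes past *Skeletor* are at or near 0 in both groups or overlap.

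*pros*, the gene of an R7 transcription factor, was lower in the rim-type cells. It fell in Rh3 cells with *hth*, to 61.9 to 97.1 CPM from 394 to 595 CPM without *hth* (log2 fold change -2.66, SE 0.14; adjusted p = 5.05e-82). A UMI of *pros* was found in 57 of 150 cells with *hth* (38.0%) and in 862 of 1170 without (73.7%). Median depth was 3967 to 14708 UMIs in Rh3 cells with *hth* and 2914 to 11850 UMIs in those without. Among cells with *hth*, those with no *pros* UMI had a median of 6662 against 10044.5 UMIs in the 1-day males and 12500 against 17895 in the females. The gap was smaller in the 3-day males (8333.5 against 8370) and the 7-day males (3573.5 against 4134). A count of 0 does not show that *pros* was absent. *hth* and *Skeletor* were found on both sides of this split. In the 93 cells with no *pros* UMI, *hth* lay between 1112 and 2231 CPM and *Skeletor* between 927 and 1420 CPM over the libraries. In the 57 with *pros*, *hth* lay between 1085 and 2128 CPM and *Skeletor* between 1401 and 2047 CPM. The cells were split by *pros* after the data were seen, and no difference between the groups was tested. No *Skeletor* UMI was seen in 16 of the 93 and 2 of the 57.

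Markers of other cell types were checked in the same cells. The neuron list of 5 genes summed to 139 to 232 CPM in Rh3 cells with *hth* and to 3.70 to 18.6 CPM without. Most of it came from *ChAT*, which makes acetylcholine, and *VAChT*, which loads it into vesicles. The other neuron markers were at or near 0: *fne* had no UMI in 3 of 4 libraries and 7.61 CPM in the 1-day males, and *VGlut* and *Gad1* had none in any. *ChAT* stood at 61.3 to 107 CPM in Rh3 cells with *hth*, 59.0 to 144 CPM in Rh5 cells and 87.9 to 135 CPM in Rh6 cells. In Rh3 cells without *hth* it stood at 1.14 to 2.06 CPM. *sens*, which the study used as an R8 marker, did not follow *ChAT*. It gave 1 UMI (0 to 4.09 CPM) in Rh3 cells with *hth* and none in those without. Its level was 7.25 to 19.9 CPM in Rh5 cells and 9.54 to 20.2 CPM in Rh6 cells. No test compared these levels. A UMI of *ChAT* or *VAChT* was found in 60 of the 93 rim-type cells with no *pros* UMI and in 44 of the 57 with *pros*. The pigment list summed to 577 to 4203 CPM with *hth* and 502 to 2552 CPM without, and the glia list to 35.8 to 128 CPM with *hth* and 25.1 to 157 CPM without.

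Over all 6580 genes tested, 83 were higher and 122 lower in Rh3 cells with *hth* than in those without. This count fell to 117 with DESeq2 and 90 without the library as a block. The make-up of R7 and R8 cells within the groups was not tested here either. The 5 genes with the largest rise were *Gfrl*, *CG14688*, *Con*, *Skeletor* and *ChT*. *Gfrl*, a receptor-like gene named for the GDNF receptor family, had 314 to 554 CPM against 0.285 to 7.98 CPM. *Con*, which encodes the adhesion protein Connectin, had 194 to 277 CPM against 1.37 to 3.42 CPM. *ChT* had 32.4 to 57.2 CPM against 0 to 1.14 CPM. It stood at 20.4 to 72.5 CPM in Rh5 cells and 39.8 to 50.1 CPM in Rh6 cells, so this level was not particular to cells with *hth*. The 5 with the largest fitted fall had no UMI in the 150 cells with *hth*, so their order depends on the fit and their folds are known only as lower limits. *Sytalpha*, a synaptotagmin gene, was at least 10.8-fold higher in cells without *hth*, taking 3 UMIs over the group as the limit. *run*, which encodes the Runx factor Runt, was at least 4.99-fold higher there. The others were *beat-IIIb*, *Src64B* and *CG30460*. Each of the 5 was also at 0 CPM in every library of another inner class. This was so for *run* in Rh4 and Rh6 cells and *Sytalpha* in Rh6 cells. It also held for *beat-IIIb*, *Src64B* and *CG30460* in Rh5 cells.

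From a list of 16 genes of dorsal patterning and of the pale and yellow choice, 8 could be tested between Rh3 cells with and without *hth*. Of these, 1 was called higher and 2 lower, against a background of 3.12% of all 6580 genes called. The median log2 difference of the 8 was -0.79 beside -0.06 for all genes. *wts*, a kinase gene of the Hippo pathway that acts in the choice between Rh5 and Rh6, rose (log2 fold change 1.37, SE 0.18). It stood at 60.3 to 122 CPM with *hth* and 16.5 to 48.3 CPM without. *melt*, its counterpart in that choice, gave 1 UMI with *hth* against 455 without, a ratio of 81.1 (14.5 to 3211). *melt* was also near 0 in Rh4 cells (0 to 0.531 CPM) and Rh6 cells (0 to 0.526 CPM). In Rh5 cells *melt* stood at 59.7 to 106 CPM and *wts* at 9.96 to 36.3 CPM. *wts* stood at 37.1 to 84.8 CPM in Rh4 cells and 84.8 to 130 CPM in Rh6 cells. Neither level was therefore particular to the rim-type cells. *pros* was the third gene called.

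The Iroquois genes *ara* and *caup* rose in cells with both Rh3 and Rh4. *caup* had 57.2 CPM in Rh3/Rh4 cells of the 1-day males (19 UMIs), 28.0 in the 3-day males (2 UMIs), 10.2 in the 7-day males (1 UMI) and 27.2 in the females (16 UMIs). Rh4 cells had 3.95, 2.26, 5.31 and 3.71 CPM in the same order. All 4 Rh3/Rh4 values exceeded all 4 Rh4 values. The log2 fold change was 2.99 (SE 0.47; adjusted p = 1.21e-07), but without the 1-day males the adjusted p was 0.0557. *ara* had 21.1, 0, 40.8 and 37.4 CPM in Rh3/Rh4 cells (7, 0, 4 and 22 UMIs) and 3.55, 0.753, 1.33 and 4.78 CPM in Rh4 cells. The 3-day males, with 17 Rh3/Rh4 cells, were the exception among the libraries, with no *ara* UMI. The log2 fold change of *ara* was 2.77 (SE 0.52; adjusted p = 2.60e-05), and without the females the adjusted p was 0.188. Both genes were the called ones among 5 tested, against a background of 0.295% of 6433 genes.

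The third Iroquois gene, *mirr*, was higher in Rh3/Rh4 cells in 4 of 4 libraries without passing the test. It had 24.1, 56.0, 30.6 and 28.9 CPM in Rh3/Rh4 cells and 11.8, 9.78, 22.6 and 17.5 CPM in Rh4 cells. The 2 sets of values did not overlap, and the log2 difference was 0.77 (SE 0.37; adjusted p = 0.379). *exd* differed by 0.42 (SE 0.23; adjusted p = 0.492) with overlapping values. *hth*, with 0 UMIs in Rh3/Rh4 and 11 in Rh4 cells, was not called either, and both groups were near or under the limit set by a count of 0.

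In single cells a UMI of *ara* or *caup* was found in 48 of 156 Rh3/Rh4 cells (30.8%) and in 38 of 910 Rh4 cells (4.18%). By library the shares were 35.8% (23.1 to 50.2%) against 4.84% (2.73 to 7.86%) in the 1-day males and 11.8% (1.46 to 36.4%) against 1.87% (0.512 to 4.72%) in the 3-day males. They were 15.6% (5.28 to 32.8%) against 2.08% (0.680 to 4.79%) in the 7-day males and 40.7% (27.6 to 54.97%) against 9.59% (5.34 to 15.6%) in the females. The intervals overlapped in the 3-day males and were apart in the other libraries. Glial cells, the class with the lowest share, gave 2 of 1505 cells (0.133%). Median depth was 2981 to 11235 UMIs in Rh3/Rh4 cells, 3165 to 13169 UMIs in Rh4 cells and 2762 to 4465 UMIs in glia, so Rh3/Rh4 cells were not the deeper ones beside Rh4 cells.

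Rh4 cells with some *Rh3* held more of the Iroquois genes than those with almost none. R7-type cells were grouped by the share of *Rh3* in their Rh3 and Rh4 UMIs, leaving out Rh3 cells with *hth*. In 766 cells with under 1% *Rh3*, *ara* stood at 1.09 CPM (0.402 to 2.38), *caup* at 1.28 CPM (0.513 to 2.63) and *mirr* at 7.66 CPM (5.52 to 10.4). In 144 cells with 1 to 30% *Rh3*, *ara* stood at 13.8 CPM (7.53 to 23.1), *caup* at 16.7 CPM (9.74 to 26.8) and *mirr* at 50.1 CPM (37.3 to 65.9). All 4 libraries lay between 47.2 and 57.2 CPM for *mirr* in this group. These values rested on 19, 7, 2 and 23 *mirr* UMIs in the 1-day, 3-day and 7-day males and the females. Under 1%, *mirr* stood at 4.97 to 7.08 CPM in 3 libraries and at 21.1 CPM in the 7-day males. The pooled intervals of all 3 genes were apart between these groups. The 156 Rh3/Rh4 cells had 30.3 CPM of *ara*, 34.9 of *caup* and 29.4 of *mirr*, so that *ara* and *caup* were higher and *mirr* lower there than at 1 to 30%, with no test of these differences. In 1135 cells with 99% or more *Rh3* the levels were 3.91, 7.08 and 13.6 CPM. Only 35 cells lay between 70 and 99%, with 4 to 14 in each library, and their intervals were wide.

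**Figure D5:**
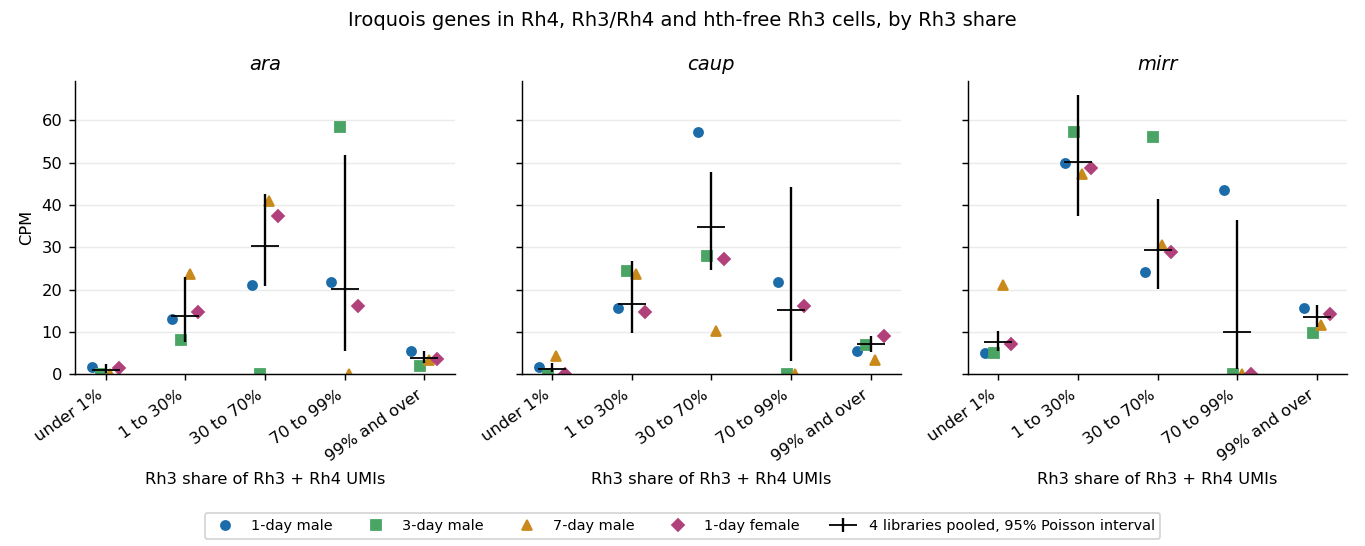
CPM of *ara*, *caup* and *mirr* in Rh4, Rh3/Rh4 and *hth*-free Rh3 cells by the share of *Rh3* among Rh3 and Rh4 UMIs; coloured points are libraries, black lines the 4 libraries pooled with 95% Poisson intervals. *mirr* peaks at 1 to 30% *Rh3* with 50.1 CPM, and pooled *ara* and *caup* are lowest under 1%.

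When the R7-type cells with 1 to 70% *Rh3* were set against those under 1%, a limit chosen after seeing the data, all 3 Iroquois genes were called. The log2 fold changes were 3.83 for *ara*, 4.13 for *caup* and 2.25 for *mirr*, against a background of 0.731% of genes called. The 3 genes were called in the same fit and share its cells and libraries.

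Rh3/Rh4 cells also exceeded Rh3 cells without *hth* in *ara* and *caup*. The log2 fold changes were 2.50 (SE 0.46; adjusted p = 1.40e-05) for *ara* and 2.08 (SE 0.39; adjusted p = 1.61e-05) for *caup*, and *Skeletor* fell, so 3 of 5 genes were called against a background of 0.902% (30 genes higher and 29 lower, or 49 and 22 without TMM factors). *ara* lost its call without the females (adjusted p = 0.277) and *caup* without the 1-day males (0.332). This comparison and that with Rh4 cells share the Rh3/Rh4 cells and are not independent. *mirr* was higher in 4 of 4 libraries (log2 difference 0.95, SE 0.35; adjusted p = 0.175). Against the rim-type cells, 3 of 5 genes were called with a background of 2.78%. *Skeletor* was higher and *ara* and *caup* lower in the rim-type cells, where *ara* gave 5 UMIs against 33 (ratio 9.06, 3.51 to 29.7, in favour of Rh3/Rh4 cells) and *caup* 1 against 38. *ara* lost this call without the females (adjusted p = 0.707), with DESeq2 (0.348) and without the library block (0.0603). Between Rh3 cells without *hth* and Rh4 cells, *Skeletor* was the 1 gene called of 5 tested, against a background of 1.17%. Most *Skeletor* UMIs of these Rh3 cells came from 23 of 1170 cells.

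From the list of 16, none of the 8 genes tested between Rh3/Rh4 and Rh4 cells was called, where 0.295% of all genes were, so the count says little about these genes (median log2 difference 0.04 beside -0.07 for all genes). *ss*, which encodes Spineless, the factor of the yellow R7 fate, stood at 28.0 to 40.8 CPM in Rh3/Rh4 cells and 33.2 to 41.4 CPM in Rh4 cells. Rh3 cells without *hth* had 3 *ss* UMIs in all and Rh3 cells with *hth* had 2. *melt* stood at 0 to 10.2 CPM in Rh3/Rh4 cells and 31.9 to 76.2 CPM in Rh3 cells without *hth*. Counted by gate, Rh3/Rh4 cells numbered 53, 17, 32 and 54, and after removal of the cells with the highest doublet scores 46, 16, 31 and 49 remained. *ara* and *caup* kept their calls without those cells (log2 fold changes 2.85 and 3.15 against Rh4 cells). The removed cells were a preset 5.07 to 13% of each library. The automatic threshold of the scores marked 837 cells in the 1-day males and 1 in each other library. Whether Rh3/Rh4 cells include doublets of an Rh3 and an Rh4 cell was not tested. Pigment markers summed to 1258 to 4353 CPM in Rh3/Rh4 cells and 383 to 2664 CPM in Rh4 cells, higher in each library, and their part in the result was not tested. Pigment-like cells themselves held *ara* at 1.57 to 4.23 CPM, *caup* at 2.37 to 7.29 CPM and *mirr* at 16.2 to 22.0 CPM. The pooled levels in Rh3/Rh4 cells were 30.3, 34.9 and 29.4 CPM in the same order.

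Over all genes, 10 were higher and 9 lower in Rh3/Rh4 than in Rh4 cells. Scaling to library totals without TMM factors gave 23 higher and 6 lower, and moved the median gene by 0.19 (log2). The same change moved the median gene by 0.17 against Rh3 cells without *hth* and by -0.13 between rim-type and Rh3/Rh4 cells. Besides *caup*, the largest rises in every library were those of *Tsp*, *MED6*, *IRSp53* and *Rbp6*, with log2 fold changes from 1.13 to 1.44. Pigment-like cells held more *Tsp* (605 to 1809 CPM) and *IRSp53* (189 to 216 CPM) than Rh3/Rh4 cells (10.2 to 59.5 and 40.8 to 102 CPM). This was not so for *MED6* (10.3 to 17.1 against 20.4 to 72.2 CPM) and *Rbp6* (11.9 to 41.3 against 27.2 to 112 CPM). The part of pigment RNA in these rises was not tested. The largest falls were those of *Cpr97Eb*, *dsx*, *CG34353*, *Rab27* and *CG8399*. *Cpr97Eb*, a cuticle protein gene, had 0 to 14.0 CPM in Rh3/Rh4 and 23.9 to 72.2 CPM in Rh4 cells. *dsx*, the sex-determination factor gene Doublesex, gave 2 UMIs against 88, a ratio of 7.38 (1.98 to 61.9) in favour of Rh4 cells.

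Among R8-type cells, *ara* and *caup* had higher levels in Rh6 than in Rh5 cells in each library, as a description without a test, while *mirr* overlapped. *ara* stood at 9.48, 6.94, 3.14 and 12.3 CPM and *caup* at 14.7, 9.54, 6.28 and 11.7 CPM in Rh6 cells of the 1-day, 3-day and 7-day males and the females. Rh5 cells had 2 *ara* UMIs and no *caup* UMI in 190 cells, where 3 UMIs would be 3.26 CPM. Neither gene had a UMI in Rh5 cells of the 3-day and 7-day males, where 1 UMI would be 7.37 and 7.25 CPM. Counts of 0 in those libraries therefore do not show a lower level. *mirr* stood at 10.0 to 15.7 CPM in Rh6 cells and 0 to 16.3 CPM in Rh5 cells. In R1-6 cells *ara* lay between 0.557 and 1.96 CPM, *caup* between 0.857 and 2.83 CPM and *mirr* between 9.53 and 13.5 CPM. Glia had 1 UMI each of *ara* and *caup* (0.102 CPM) and 13 of *mirr* (1.33 CPM).

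Pigment-like cells formed the second class of eye cells with *hth*. They held 71.5 CPM in the 1-day males, 76.2 in the 3-day males, 87.0 in the 7-day males and 54.6 in the females, against 2.66, 1.62, 1.81 and 0.796 CPM in R1-6 cells. Every pigment-like value exceeded every R1-6 value. The log2 fold change was 4.70 (SE 0.22; adjusted p = 1.66e-13), and 5.43 without TMM factors, a scaling that moved the median gene by 0.72 here. At least 2 *hth* UMIs were found in 327 of 8033 pigment-like cells (4.07%), whose median depth was 1270 to 1784 UMIs, and in 0.158% of the deeper R1-6 cells. *Skeletor* did not accompany *hth* here, with 9 UMIs in all pigment-like cells and none of the 327 cells at 2 *Skeletor* UMIs.

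*exd* was lower in pigment-like than in R1-6 cells with TMM factors (log2 fold change -1.37, SE 0.17; adjusted p = 6.30e-07), at 14.7 to 26.5 CPM against 23.4 to 47.5 CPM. Without TMM factors the difference was -0.64 and under the 2-fold limit, so the call rests on the scaling. *ara* (0.47, SE 0.32), *caup* (0.75, SE 0.27) and *mirr* (0.04, SE 0.18) were not called, and the first 2 were called higher without TMM factors (1.15 and 1.44). *hth* and *exd* were thus 2 of 6 genes called where 53.5% of all 8618 genes were (2331 higher and 2277 lower, or 3370 and 1272 without TMM factors).

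*exd* was present in every class. Its levels lay between 26.8 and 49.5 CPM in Rh3 cells with *hth*, 28.2 and 64.8 CPM in those without, 42.0 and 84.2 CPM in Rh3/Rh4 cells and 29.4 and 45.8 CPM in Rh4 cells. Rh6 cells had 36.4 to 60.7 CPM, and Rh5 cells 7.37 to 65.3 CPM, the lowest of these from 1 UMI in the 3-day males. No comparison among photoreceptor classes called *exd*. Neurons held more, 146 to 194 CPM, and glia 36.5 to 73.4 CPM. Neurons and glia also held *hth*, at 61.4 to 340 CPM and 29.2 to 116 CPM, and 2 or more *hth* UMIs were found in 384 of 3887 neurons. Only 1 of these 384 neurons also held 2 *Skeletor* UMIs. Cone and primary pigment-like cells, seen in the 3 male libraries, had 0 to 63.5 CPM of *hth*.

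Across the 32 sums of 8 classes in 4 libraries, the genes whose levels were most like those of *hth* (Pearson r of log2(CPM + 5), 7714 genes, as a description) were *AdoR*, an adenosine receptor gene (r = 0.980), *glob1* (0.892), *Con* (0.891), *Ptp10D* (0.854) and *Skeletor* (0.847). Most like *Skeletor* were *Con* (0.956), *CG14688* (0.932), *pon* (0.912), *Gfrl* (0.909) and *stan* (0.896). Genes needed at least 50 UMIs over the sums, and *pon* and *stan* had only 56 and 64. Most like *mirr* were *Upf3* (0.780), *Rbp6* (0.757), *CG10055* (0.756), *Sirt1* (0.716) and *CG3358* (0.710). The sums share libraries, depth and gates, and *hth* defined 2 of the classes. *AdoR* stood at 51.4, 32.7, 44.7 and 45.6 CPM in Rh3 cells with *hth* and at 0.785, 0, 1.14 and 0.285 CPM without. *ara* and *caup* were alike at r = 0.613, *caup* and *mirr* at 0.593, and *ara* and *mirr* at 0.424.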

How the data were processed

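Per the labels and the study's methods, the authors aligned single-cell libraries from *Drosophila* eyes to dm6 with Cell Ranger 6.0.1 and deposited UMI counts per gene and cell, without normalization. Their removal of free RNA and of doubtful cells is not part of the deposited counts. Cells within the study's limits on genes and mitochondrial share were clustered per library with Seurat 5.3.0 (SCTransform, sctransform 0.4.2, 50 components, resolution 0.8), after the 6 genes were removed. Clusters were named from fixed marker lists, with naming thresholds set with the clusters at hand, so the classes may differ from those of the study. Inner photoreceptors had at least 20 UMIs of *Rh3*, *Rh4*, *Rh5* and *Rh6* and more of these than of *ninaE*, and R7-type cells had at least 70% of them from *Rh3* and *Rh4*. R1-6 cells had at least 20 *ninaE* UMIs. UMIs were summed per class and library and tested in edgeR 4.0.16 (quasi-likelihood, TMM factors, library as block, at least 10 UMIs over the sums, R 4.3.3). P-values were Benjamini-Hochberg adjusted over all genes, and genes were called where this p was under 0.05 and the change exceeded 1 on the log2 scale. The fit was tested on simulated data. Depth was 17654226 to 98373676 UMIs a library, which limits genes of few UMIs. Doublets were left in the main result. Named genes were the 6, a list of 16, the 5 most alike to *hth*, *mirr* and *Skeletor*, and the 5 with the largest change each way that moved alike in every library. Positions came from the Ensembl 115 annotation. The genes, lists and rules were chosen with earlier results of these data known. Alternatives covered the test, filter, block, libraries, gates, clusters, free RNA, doublets and scaling.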

Additional observations from a re-analysis of the deposited data

Results flagged for a closer look

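Photoreceptor-like cells that no rhodopsin gate took in, 2530 of them, also held these genes. Pooled over the 4 libraries, *hth* stood at 25.7 CPM, *exd* at 39.6 CPM, *mirr* at 11.6 CPM and *Skeletor* at 20.1 CPM in these cells, above the limit that a count of 0 allows. Of them, 56 held 2 or more *Skeletor* UMIs, all with at least 20 *Rh3* UMIs, and 29 of the 56 also held 2 or more *hth* UMIs. Of the 57 ungated cells with 2 or more *hth* UMIs, 40 had at least 20 *Rh3* UMIs. The others were all in the 1-day males, where 23 of 40 had them. The 31 Rh3 cells with 1 *hth* UMI, which entered neither Rh3 group, held *Skeletor* at 610 CPM. No comparison used either set of cells.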

How the results depend on the processing

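No called member changed sign under the alternatives run: 412 member values kept their side of the threshold, 18 lost a call and 4 gained one. Differences that were not called did change sign in places. Without each library in turn, *ara* ran from -5.07 to 0.19 and *mirr* from -0.15 to 0.53 between Rh3 cells with and without *hth*, *exd* from -0.08 to 0.30 between Rh3/Rh4 cells and Rh3 cells without *hth*, and *mirr* from -0.06 to 0.22 between pigment-like and R1-6 cells. The share of Rh3 cells with *hth* stayed within its 95% interval in each library under all 6 alternatives. The main fit pairs the cell classes by library through the library block, and the fit without it is given. Counts of genes called moved as follows, and the cause was not tested. For Rh3 cells with against without *hth* (205 called), DESeq2 gave 117, filterByExpr 134, no library block 90 and gates without clusters 120. For Rh3/Rh4 against Rh4 cells (19), DESeq2 gave 9, no block 4, totals without TMM 29, 90% of the pair 31, free RNA removal 44, gates without clusters 70 and the 1% limit, added after seeing the data, 47. For Rh3/Rh4 against Rh3 cells without *hth* (59), DESeq2 gave 27, no block 19, the fit without the females 34, free RNA removal 89 and gates without clusters 89. For rim-type against Rh3/Rh4 cells (153), DESeq2 gave 75, filterByExpr 92 and no block 71. For Rh3 cells without *hth* against Rh4 cells (80), DESeq2 gave 45, no block 28 and gates without clusters 52. Without each library in turn the counts were 138 to 203, 14 to 20, 34 to 63, 109 to 154, 74 to 84 and, for pigment-like cells, 4116 to 4663. *ara* against Rh4 cells lost its call without the block (adjusted p = 0.0562 in edgeR). With cells thinned to 1000 and 500 UMIs, the share with *hth* in Rh3 cells with *hth* was 76.8% and 60.7%, and with *Skeletor* 66.9% and 43.3%. In Rh3/Rh4 cells it was 6.47% and 2.56% for *exd*, 3.60% and 1.28% for both *ara* and *caup*, and 2.16% and 0.641% for *mirr*, near the level of 1 UMI. Among the 8 classes, Rh3/Rh4 cells stayed the highest for *ara* and *caup*. For *mirr*, Rh3 cells with *hth* were higher at 1000 UMIs (3.52%) and Rh4 cells at 500 (0.879%). For *exd*, Rh3 cells without *hth* were higher at 500 UMIs (2.65%).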
